A study of Mus musculus with 9 samples.

Results

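Connective tissue growth factor (Ctgf) and 9 other genes of the Yap-Tead pathway were followed in mouse hepatic stellate cells that had received exosomes of tumour cells or of normal duct cells. The genes were taken by name from a table of 11051 protein-coding genes: Ctgf, Cyr61, Ankrd1, Amotl2, Yap1, Wwtr1, Tead1, Tead2, Tead3 and Lats2. All 10 names were found, in 11 entries of the table, because Lats2 was listed under 2 identifiers. All 11 entries were expressed highly enough to be tested, so none was lost to the filter on low values.

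Yap1 and its relative Taz, the product of Wwtr1, are transcription coactivators that have no DNA-binding domain of their own and act on genes through the Tead transcription factors. The Hippo kinases, with Lats2 among the last of the chain, phosphorylate both proteins and keep them out of the nucleus, so much of the pathway's activity is set on proteins rather than on RNA. In the liver the pathway is known for control of organ size and for its part in stellate cell activation, in which Ctgf is one of the best known secreted products.

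Stellate cells store vitamin A in the healthy liver and turn into matrix-producing myofibroblasts when activated. Primary cells were isolated from livers of C57BL/6 mice and grown in medium with exosome-depleted serum. One group of 3 libraries received exosomes (small vesicles shed by cells) of KPC cells, a second group of 3 received exosomes of Panc02 cells, and the control group of 3 received those of normal epithelial cells of the mouse pancreatic duct, used as a primary culture. KPC and Panc02 are cell lines of mouse pancreatic adenocarcinoma, so each source of tumour exosomes was 1 line, and every control library had also received exosomes. The study's question was how the RNA of stellate cells differs after tumour exosomes and after duct cell exosomes. The labels do not state whether the 3 libraries of a group stem from different animals or cultures, and p-values therefore reflect only the spread among these samples.

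Levels are given in FPKM (fragment counts scaled for transcript length and library size, which allows comparison between genes of different length). Their read depth is unknown. FPKM totals ran from 257119 to 307280 per library. The library numbered 1 stood apart in every group: 33.6% of FPKM fell on the 13 mitochondrially encoded genes in KPC replicate 1, 28.3% in Panc02 replicate 1 and 26.4% in control replicate 1, against 11.2% to 15.9% in the other 6 libraries. For the 10 genes, each call that changed without these 3 libraries, or with the replicate number as a block in the model, is therefore given with and without that change. Of 9 stellate cell markers, 5 were in the table and all 5 were expressed in every library (Acta2, Col1a1, Col1a2, Pdgfrb and Dcn). Lrat, Reln, Des and Hand2 were not in the table. None of 7 hepatocyte markers was in the table. The summed level of 3 macrophage markers stayed between 3.74 and 6.1 FPKM over all libraries. For 3 markers of portal fibroblasts and mesothelium (Thy1, Cd34 and Msln) the sum was 133 to 204 FPKM after KPC exosomes, 131 to 192 FPKM after Panc02 exosomes and 185 to 232 FPKM after control exosomes, and its part in the results was not tested. Cells of a type that became fewer and cells that held less RNA cannot be told apart in these bulk samples.

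Among the targets of Yap and Taz, Ctgf rose after exosomes of either tumour line. Cyr61 and Ankrd1 had smaller differences in the same direction, which did not pass in the fit of group means but passed for Panc02 exosomes with the replicate block and without the replicate 1 libraries, and Amotl2 was not distinguishable from control. Ctgf (ENSMUSG00000019997.11, chr10:24595442-24598683, plus strand, GRCm38) encodes a secreted matricellular protein of the CCN family that binds matrix and growth factors and is made in quantity by fibrotic tissue. Its level was 85.5, 95.9 and 114 FPKM in the 3 KPC libraries, 126, 139 and 138 FPKM in the 3 Panc02 libraries and 51.4, 48.7 and 49.1 FPKM in the 3 control libraries. The 3 groups did not overlap at any point: every Panc02 library lay above every KPC library, and every KPC library above every control library.

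Group means of Ctgf were 98.5 ± 14.5 FPKM after KPC exosomes, 134 ± 7.37 FPKM after Panc02 exosomes and 49.7 ± 1.43 FPKM after control exosomes (SD, n = 3 each). On the log2(FPKM + 1) scale, the difference from control was 0.96 for KPC (95% interval 0.70 to 1.23, limma adjusted p = 0.0247) and 1.41 for Panc02 (1.15 to 1.68, limma adjusted p = 0.00284). Both calls were made in the fit of group means and again with the replicate block. Ctgf was 1 of 13 genes called higher after KPC exosomes, which is 0.125% of the 10368 tested, and 1 of 45 after Panc02 exosomes, which is 0.434%. No other of the 10 genes passed in either comparison, and none was called lower, where 0.203% (KPC) and 0.579% (Panc02) of tested genes were. With both tumour sources set together against control, the difference of Ctgf was 1.19 (limma adjusted p = 0.00237), where 0.463% of tested genes were called higher.

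The Panc02 call and the call for both sources held in every one of the alternative settings tried. The KPC call did not, and it was also lost with libraries scaled to equal FPKM totals (limma adjusted p = 0.123) and in a fit of the KPC and control groups alone (limma adjusted p = 0.132). Its adjusted p was 0.0853, 0.151 and 0.17 without control replicate 1, 2 or 3, with differences of 0.99, 0.95 and 0.95. It was 0.0759 and 0.0624 without KPC replicate 2 or 3 (differences of 0.98 and 0.85), and 0.0642 and 0.0687 without Panc02 replicate 2 or 3 (difference of 0.96 each). The size of the difference changed little in these fits, while 0 to 8 genes were called for KPC exosomes in them, against 34 with all libraries.

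Between the tumour sources, Ctgf differed by 0.45 on the log2 scale, Panc02 over KPC (95% interval 0.19 to 0.72). The unadjusted p was 0.00418 and the limma adjusted p was 1. None of the 10368 genes passed in this comparison by limma, with or without the replicate block, and 86 genes (0.829%) had an unadjusted p under 0.05. Without the 3 replicate 1 libraries 8 genes passed, and Ctgf was not among them (limma adjusted p = 0.994). Libraries of the 2 tumour sources did not overlap, with Panc02 the higher, for 1.36% of tested genes, and among the 10 genes this was so for Ctgf alone.

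**Figure D1:**
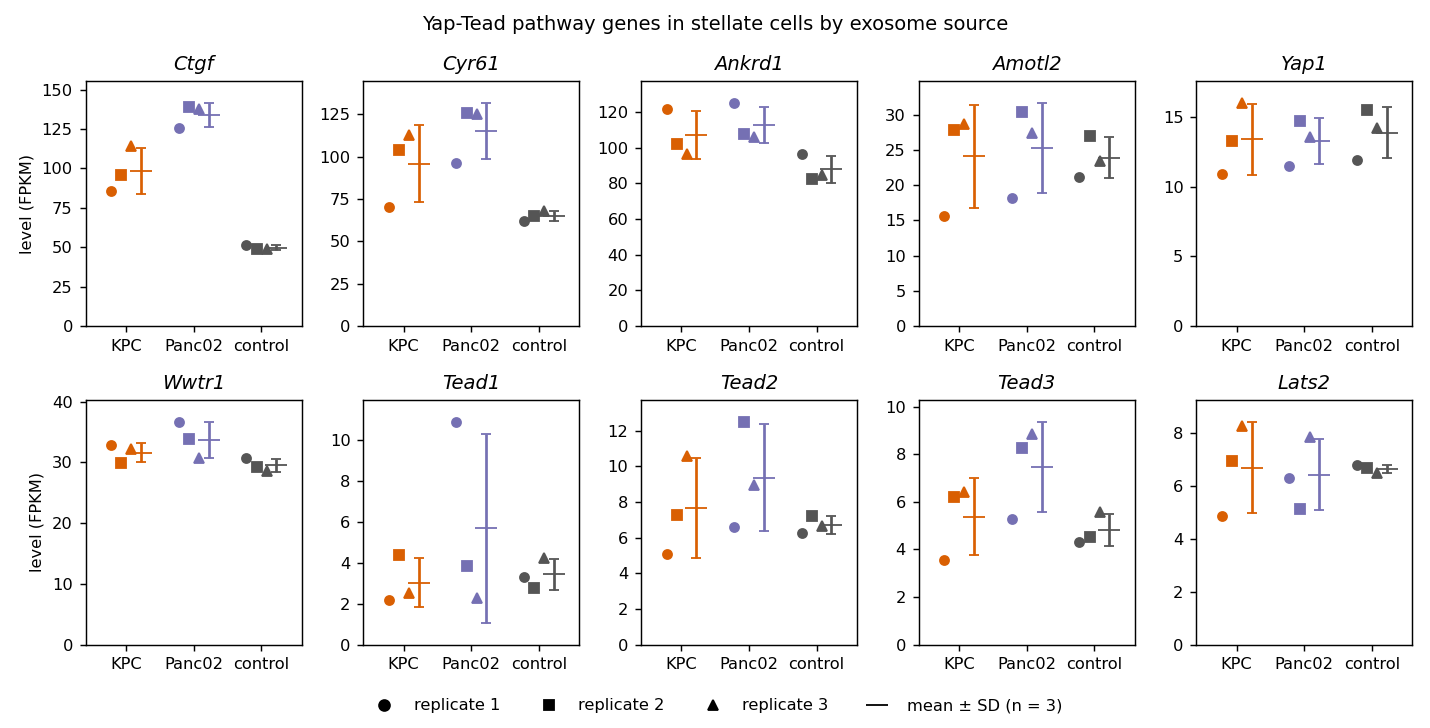
Level of each gene in FPKM (vertical axes, starting at 0) in the KPC, Panc02 and control groups; points are single libraries, shaped by replicate number, and the bars beside them are the mean ± SD of 3 libraries. The Ctgf points of the 3 groups are apart, at 126 to 139 FPKM for Panc02, 85.5 to 114 FPKM for KPC and 48.7 to 51.4 FPKM for control, while most points of the other genes overlap between groups.

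Cyr61 (ENSMUSG00000028195.4, chr3:145646976-145649981, minus strand) is the closest relative of Ctgf in the CCN family and likewise encodes a secreted matricellular protein. Its level was 70.4, 104 and 113 FPKM with KPC exosomes, 96.3, 126 and 125 FPKM with Panc02 exosomes and 62.2, 65.2 and 68 FPKM with control exosomes. All 6 tumour exosome libraries were above the 3 control libraries, and in both tumour groups replicate 1 was the lowest. The difference from control was 0.52 for KPC (95% interval 0.10 to 0.95, limma adjusted p = 0.549) and 0.81 for Panc02 (0.38 to 1.23, limma adjusted p = 0.107), so neither passed. With the replicate block the Panc02 difference passed (limma adjusted p = 0.00867) and the KPC difference had a limma adjusted p of 0.0669. Without the 3 replicate 1 libraries both passed, at differences of 0.90 for Panc02 (limma adjusted p = 0.00278) and 0.70 for KPC (limma adjusted p = 0.00972). The Panc02 call also changed without KPC replicate 1 alone, where the limma adjusted p was 0.0255.

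Ankrd1 (ENSMUSG00000024803.8, chr19:36111965-36119844, minus strand) encodes an ankyrin repeat protein of muscle and myofibroblasts that is found at the sarcomere and in the nucleus. It was measured at 122, 102 and 96.5 FPKM in KPC libraries, at 125, 108 and 106 FPKM in Panc02 libraries and at 96.5, 82.5 and 85 FPKM in control libraries. The lowest KPC library and the highest control library had the same level at this precision, with the KPC library the higher by less than the digits given, and all Panc02 libraries lay above the control libraries. Unlike Cyr61, Ankrd1 was highest in replicate 1 of every group. It differed from control by 0.28 for KPC (95% interval -0.01 to 0.56, limma adjusted p = 0.773) and by 0.36 for Panc02 (0.08 to 0.64, limma adjusted p = 0.326). With the replicate block the limma adjusted p was 0.0892 for KPC and 0.0222 for Panc02, and without the 3 replicate 1 libraries it was 0.127 for KPC and 0.0401 for Panc02.

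Ctgf, Cyr61 and Ankrd1 were the 3 of the 10 genes whose libraries did not overlap those of control, in either comparison and with the tumour exosome libraries always the higher. Over all tested genes this was so for 4.14% with KPC exosomes and 6.79% with Panc02 exosomes. With the replicate block, 1 of the 10 genes passed for KPC (0.588% of all tested genes called higher), and Ctgf, Cyr61 and Ankrd1 passed for Panc02 (1.85% called higher) and for both sources together (1.83% called higher). Without the 3 replicate 1 libraries, Ctgf and Cyr61 passed for KPC (0.965% of tested genes called higher), and Ctgf, Cyr61, Ankrd1 and Tead3 passed for Panc02 (2.53%) and for both sources (4.27%). Both comparisons use the same 3 control libraries.

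Amotl2 (ENSMUSG00000032531.15, chr9:102716672-102733418, plus strand) encodes an angiomotin-like scaffold that binds Yap and is itself a target of Yap and Tead. The level was 15.7, 27.9 and 28.7 FPKM after KPC exosomes, 18.2, 30.4 and 27.4 FPKM after Panc02 exosomes and 21.1, 27 and 23.5 FPKM after control exosomes. The groups overlapped widely, and replicate 1 was the lowest library in each of them. Amotl2 differed from control by -0.03 for KPC (95% interval -0.62 to 0.57) and by 0.06 for Panc02 (-0.53 to 0.65), with a limma adjusted p of 1 in each. With the replicate block the intervals were -0.31 to 0.26 for KPC and -0.23 to 0.34 for Panc02. These overlap the block intervals of Ankrd1 (0.13 to 0.42 for KPC and 0.21 to 0.51 for Panc02). Amotl2 and Ankrd1 were not tested against each other.

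Sequences before the start of transcription are shown for these targets because Tead proteins are known to bind the letters GGAATG, or CATTCC on the other strand. The RefSeq promoter sequences of GRCm38.p6 used here held the 250 bases before the start for Cyr61 (chr3:145649986-145650235, minus strand), Ankrd1 (chr19:36119845-36120094, minus strand) and Amotl2 (chr9:102717554-102717803, plus strand). Each is written 5′ to 3′ along its gene with matches to GGAATG or CATTCC in capitals.
Cyr61: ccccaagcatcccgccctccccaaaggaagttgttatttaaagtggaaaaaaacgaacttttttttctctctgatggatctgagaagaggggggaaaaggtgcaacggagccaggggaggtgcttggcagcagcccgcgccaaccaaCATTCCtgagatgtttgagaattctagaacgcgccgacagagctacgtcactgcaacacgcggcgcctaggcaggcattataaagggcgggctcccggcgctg
Ankrd1: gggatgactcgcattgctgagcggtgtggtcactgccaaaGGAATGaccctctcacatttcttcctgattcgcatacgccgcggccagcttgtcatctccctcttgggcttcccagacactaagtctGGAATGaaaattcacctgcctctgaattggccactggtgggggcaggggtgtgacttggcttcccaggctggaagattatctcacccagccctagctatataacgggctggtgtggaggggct
Amotl2: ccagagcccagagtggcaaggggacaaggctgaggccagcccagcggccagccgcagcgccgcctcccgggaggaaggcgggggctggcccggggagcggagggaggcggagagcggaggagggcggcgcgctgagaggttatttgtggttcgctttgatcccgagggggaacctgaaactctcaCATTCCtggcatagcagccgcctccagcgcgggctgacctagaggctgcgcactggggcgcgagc

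The Cyr61 window held 1 match, which begins 103 bases before the start, on the reverse strand. The Ankrd1 window held 2 matches, 210 and 123 bases before the start, both on the gene's own strand. The Amotl2 window held 1, on the reverse strand 65 bases before the start, although the level of Amotl2 was not distinguishable from control. The RefSeq start used for Amotl2 lies inside the gene span of the deposited table. Yap1 and Wwtr1 had 1 match in each of their windows, Tead3 had matches in 2 of its 3 windows, and Tead2 and Lats2 had none. No window of Ctgf or Tead1 was among the promoter sequences used here. A match to GGAATG on either strand was present in 4153 of 32851 windows of this length, or 12.6%. Neither the AP-1 motif TGANTCA, present on either strand in 6.75% of all windows, nor the CArG box bound by Srf, present in 1.47%, was found in a window of any of these genes. With motifs this rare, finding none in so few windows says little, and Ctgf itself had no window to search. These are matches of letters and say nothing of binding in these cells.

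Among the coactivators, Taz was the more abundant at the RNA level and neither was distinguishable from control. Wwtr1 (ENSMUSG00000027803.14, chr3:57455649-57575910, minus strand) was at 32.8, 29.8 and 32.2 FPKM with KPC exosomes, 36.6, 33.8 and 30.7 FPKM with Panc02 exosomes and 30.7, 29.3 and 28.6 FPKM with control exosomes. Each tumour library was above the control library of the same number, but the groups overlapped. The differences were 0.09 for KPC (95% interval -0.12 to 0.31, limma adjusted p = 1) and 0.18 for Panc02 (-0.03 to 0.39, limma adjusted p = 0.652).

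Yap1 (ENSMUSG00000053110.13, chr9:7931999-8004596, minus strand) was at 10.9, 13.3 and 16 FPKM in KPC libraries, 11.5, 14.7 and 13.6 FPKM in Panc02 libraries and 11.9, 15.5 and 14.2 FPKM in control libraries. No group stood above another, and replicate 1 was the lowest library of each. The difference from control was -0.05 for KPC (95% interval -0.42 to 0.31) and -0.06 for Panc02 (-0.42 to 0.31), with a limma adjusted p of 1 in each. Per library, the level of Wwtr1 was 1.9 to 3.18 times that of Yap1, and it was the higher of the pair in 9 of 9 libraries.

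The Tead factors, which carry the DNA-binding domain, had the lowest group means of the 10 genes together with Lats2. Tead3 (ENSMUSG00000002249.20, chr17:28331671-28350805, minus strand) had 3.54, 6.21 and 6.4 FPKM after KPC exosomes, 5.29, 8.25 and 8.83 FPKM after Panc02 exosomes and 4.32, 4.52 and 5.56 FPKM after control exosomes. Panc02 replicates 2 and 3 were above all control libraries, and Panc02 replicate 1 was within their range. The difference of Panc02 from control was 0.52 (95% interval -0.01 to 1.06, limma adjusted p = 0.54), and that of KPC was 0.11 (-0.42 to 0.64, limma adjusted p = 1). For Panc02 the limma adjusted p was 0.0611 with the replicate block and 0.0264 without the 3 replicate 1 libraries, where the difference was 0.66.

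Tead2 (ENSMUSG00000030796.17, chr7:45215753-45233644, plus strand) had 5.07, 7.27 and 10.6 FPKM with KPC exosomes, 6.61, 12.5 and 8.96 FPKM with Panc02 exosomes and 6.24, 7.21 and 6.67 FPKM with control exosomes. KPC libraries spread on either side of the narrow control range, and Panc02 libraries lay within it or above it. The difference was 0.12 for KPC (95% interval -0.48 to 0.72, limma adjusted p = 1) and 0.39 for Panc02 (-0.21 to 0.99, limma adjusted p = 0.828).

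Tead1 (ENSMUSG00000055320.17, chr7:112679318-112906807, plus strand) was at 2.18, 4.38 and 2.53 FPKM after KPC exosomes, 10.9, 3.83 and 2.28 FPKM after Panc02 exosomes and 3.3, 2.76 and 4.24 FPKM after control exosomes. A single library, Panc02 replicate 1, was more than its group's other libraries together, and without the 3 replicate 1 libraries the Panc02 difference was -0.16 in place of 0.39. The limma adjusted p was 1 with all libraries (95% interval -0.60 to 1.37) and 0.77 without those 3. For KPC the difference was -0.16 (-1.15 to 0.82, limma adjusted p = 1). The same Panc02 library had the highest levels of the epithelial genes Krt19 and Epcam, at 3.89 FPKM each, against 0 to 1.01 FPKM for Krt19 and 0 to 0.767 FPKM for Epcam in the other 8 libraries, and the part of this in the Tead1 value was not tested.

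Lats2 (ENSMUSG00000021959.16, chr14:57689662-57758388, minus strand), the kinase that phosphorylates Yap and Taz and is also one of their targets, was at 4.86, 6.95 and 8.29 FPKM with KPC exosomes, 6.32, 5.14 and 7.84 FPKM with Panc02 exosomes and 6.78, 6.68 and 6.48 FPKM with control exosomes. The control libraries were close together and the tumour libraries lay on both sides of them. The differences were -0.02 for KPC (95% interval -0.44 to 0.41) and -0.06 for Panc02 (-0.48 to 0.37), with a limma adjusted p of 1 in each. The second entry named Lats2 (ENSMUSG00000114942.1, chr14:57642077-57746103) shares 2955 exon bases with the first and is called Gm49361 in the GENCODE annotation of GRCm38. It was listed at 0 in 6 libraries, at 1.57 FPKM in KPC replicate 3, at 3.01 FPKM in Panc02 replicate 2 and at 1.5 FPKM in control replicate 3, so the division of reads between these entries is uncertain. Whether reads were counted by strand is not given in the sources used here. Exons of Ctgf overlap those of Gm15270 on the other strand by 665 bases, and exons of Yap1 those of Gm20416 by 116 bases, and such reads cannot be told apart without strand.

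**Figure D2:**
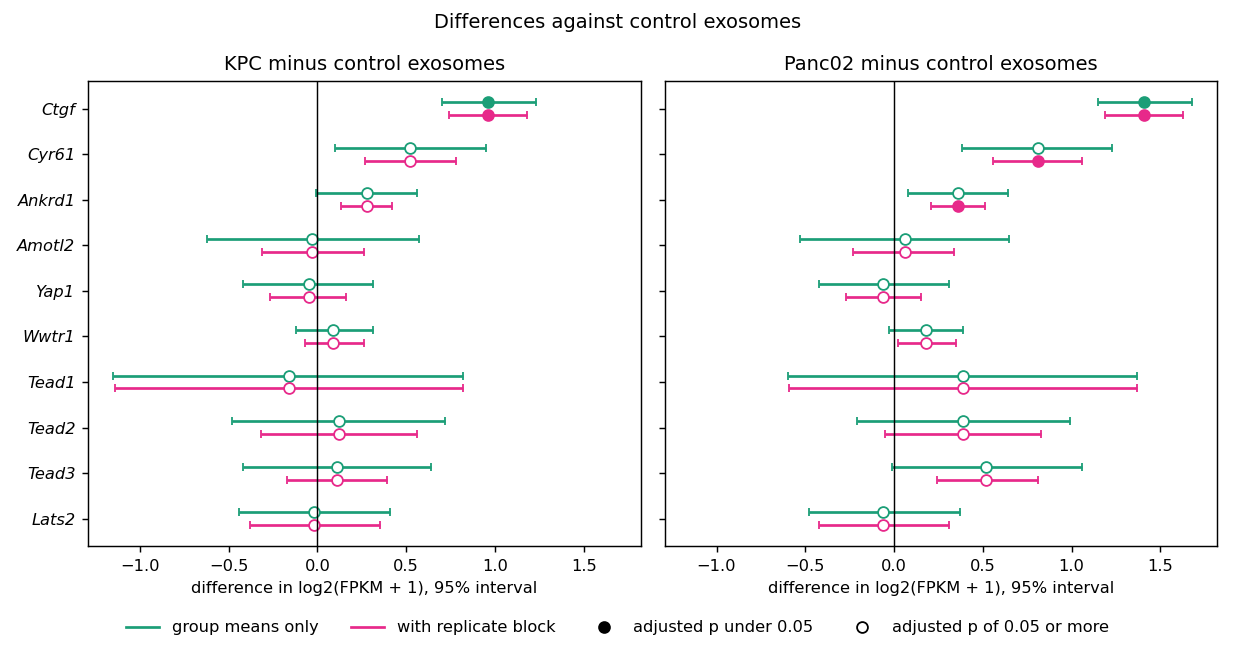
Difference from control in log2(FPKM + 1) (horizontal axes) for each gene, KPC in the left panel and Panc02 in the right; points are estimates, lines are 95% intervals, green for the fit of group means and pink for the fit with the replicate block, and filled points had an adjusted p under 0.05. The intervals of Ctgf lie well to the right of 0 in both panels, those of Cyr61 and Ankrd1 lie above 0 for Panc02 (0.38 to 1.23 and 0.08 to 0.64 without the block), and the interval of Tead1 is the widest of the 10 genes shown (the second Lats2 entry is not drawn).

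The order of levels among the genes also differed between the groups. In control libraries the order was Ankrd1 (88 ± 7.49 FPKM), Cyr61 (65.1 ± 2.89 FPKM), Ctgf (49.7 ± 1.43 FPKM), Wwtr1 (29.5 ± 1.08 FPKM), Amotl2 (23.9 ± 2.93 FPKM) and Yap1 (13.9 ± 1.8 FPKM), with no overlap between neighbours. Below them came Tead2 and Lats2, which overlapped, then Tead3 and Tead1. With KPC exosomes Ankrd1, Ctgf and Cyr61 overlapped at 107 ± 13.4, 98.5 ± 14.5 and 95.9 ± 22.6 FPKM. With Panc02 exosomes Ctgf was in first place at 134 ± 7.37 FPKM and did not overlap Cyr61 (115 ± 16.6 FPKM), while Cyr61 and Ankrd1 (113 ± 10.2 FPKM) overlapped. The lowest Ctgf level and the highest Cyr61 level in Panc02 libraries were both 126 FPKM at this precision, with Ctgf the higher by less than the digits given. The ratio of Ctgf to Cyr61 within a library was 1.22, 0.921 and 1.01 with KPC exosomes, 1.31, 1.11 and 1.11 with Panc02 exosomes and 0.826, 0.748 and 0.723 with control exosomes. All 6 tumour exosome libraries had a higher ratio than any control library, and this ratio was not tested.

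Each gene's spread over the 9 libraries was also split into the share that went with the exosome source and the share that went with the replicate number. These shares come from the same values as the differences above and are no separate evidence. For Ctgf, 96.8% of the sum of squares of log2(FPKM + 1) lay between exosome sources and 1.2% between replicate numbers. For Amotl2, 1.43% lay between sources and 82.3% between numbers, and for Yap1 the shares were 2.4% and 78.5%. Cyr61 (73.4% and 19.6%), Ankrd1 (63.7% and 34.1%) and Wwtr1 (52% and 27.9%) had the larger share with the source, and Tead2 (23.1% and 43.8%) and Tead3 (42.7% and 46.9%) the larger share with the number. The median over all tested genes was 12.4% for the source and 56.4% for the number. For Tead1 and Lats2 the remainder was the largest part, at 70.2% and 59.6%.

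Replicate 1 was below the mean of replicates 2 and 3 in 3 of 3 groups for Amotl2, Tead3, Tead2, Cyr61 and Yap1, by 0.56, 0.49, 0.48, 0.36 and 0.32 on average (differences of -0.56, -0.49, -0.48, -0.36 and -0.32 in log2(FPKM + 1)). It was above them in 3 of 3 groups for Ankrd1 (0.24) and Wwtr1 (0.11). The median gene differed by -0.16. These are the libraries with the higher mitochondrial share, and the part of that share in these differences was not tested.

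**Figure D3:**
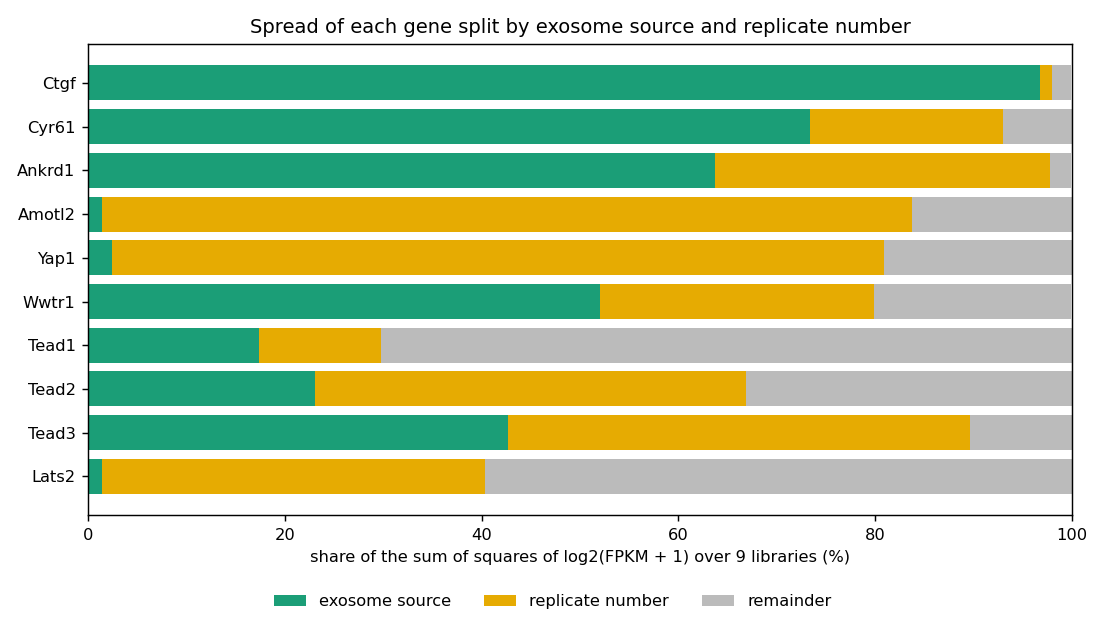
Share in percent (horizontal axis) of each gene's sum of squares in log2(FPKM + 1) over 9 libraries that lay between exosome sources (green), between replicate numbers (yellow) and in the remainder (grey). Ctgf is almost wholly green (96.8%), and Amotl2 and Yap1 are mostly yellow (82.3% and 78.5%).

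The wider pathway was read from lists of genes around the 10. None of 27 tested Hippo kinases and scaffolds passed in any comparison, and their median difference was -0.03 for KPC and -0.01 for Panc02, beside medians of -0.01 and -0.00 over all tested genes. The lowest p belonged to Wwc2, a scaffold that activates the Lats kinases, at 10, 12.2 and 16.9 FPKM with KPC exosomes, 14.1, 17.4 and 15.3 FPKM with Panc02 exosomes and 8.23, 10.3 and 9.77 FPKM with control exosomes. All Panc02 libraries were above the control libraries, by 0.67 (limma adjusted p = 0.18, 0.03 with the replicate block and 0.057 without the 3 replicate 1 libraries), and no other gene of this list was called for Panc02 with the block. In that fit 1.85% of all tested genes were called higher, so 1 call among 27 genes is no result about the list. Stk24, a kinase of the Ste20 group, Limd1, a Lats inhibitor, and Mob1a, a Lats coactivator, had the next lowest p over the 4 comparisons, Mob1a through Panc02 against KPC (0.65, unadjusted p = 0.0907, limma adjusted p = 1). From control, Limd1 differed by 0.48 for KPC and 0.15 for Panc02, Mob1a by -0.27 and 0.38, and Stk24 by -0.14 and -0.18, and none of them passed in either fit. Mob1a was at 27.1 FPKM in Panc02 replicate 1 and at 14.1 and 8.8 FPKM in Panc02 replicates 2 and 3. Without the 3 replicate 1 libraries its Panc02 difference was -0.01. Limd1 was at 7.6 FPKM in KPC replicate 2 and at 3.63 and 4.38 FPKM in KPC replicates 1 and 3. Of the coactivators, Tead factors and their cofactors, 8 were tested and none passed, with or without the block, at medians of -0.00 for KPC and 0.15 for Panc02. Tead4, which was outside the 10 genes, differed by -0.03 and -0.02.

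Of 18 tested targets of Yap and Taz from a list of 22, only Ctgf passed in the fit of group means, beside 0.125% (KPC) and 0.434% (Panc02) of all tested genes called higher. With the block Cyr61 and Ankrd1 joined it for Panc02, where 1.85% of all tested genes were called higher. Without the 3 replicate 1 libraries, 2 of the 18 passed for KPC, 3 for Panc02 and 4 for both sources together. The shares of all tested genes called higher there were 0.965%, 2.53% and 4.27%. The median difference was 0.03 for KPC, with 9 genes above 0 and 9 below, and 0.08 for Panc02, with 13 above and 5 below. Libraries did not overlap control in the higher direction for 4 of the 18 with KPC and 5 with Panc02 (4.14% and 6.79% of all tested genes), and in the lower direction for 1 gene in each (7.31% and 9.3% of all tested genes). Crim1, a membrane protein that binds growth factors, was at 20.4, 18.9 and 21.8 FPKM after KPC exosomes, 23.7, 22.9 and 19.5 FPKM after Panc02 exosomes and 18, 18.8 and 18.1 FPKM after control exosomes. Neither tumour group overlapped control for Crim1, at differences of 0.15 for KPC (limma adjusted p = 1) and 0.25 for Panc02 (limma adjusted p = 0.445), and it did not pass with the block. The gene with no overlap in the lower direction was F3 (tissue factor), at 38.1, 35.7 and 36.2 FPKM after KPC exosomes, 38.9, 40.5 and 36.9 FPKM after Panc02 exosomes and 41, 40.9 and 41.3 FPKM after control exosomes. Every control library was above all tumour exosome libraries, and F3 differed by -0.16 for KPC (limma adjusted p = 0.86) and -0.08 for Panc02 (limma adjusted p = 0.985). Myof (myoferlin, a membrane repair protein) differed by -0.25 (limma adjusted p = 0.833) and -0.20 (limma adjusted p = 0.76). In each tumour library Myof was below the control library of the same number, though pairing by number was not shown for numbers 2 and 3. Axl, a receptor tyrosine kinase, differed by -0.09 and -0.07.

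Ctgf and Cyr61 belong to the CCN family, of which 4 of 6 genes were in the table and all 4 had differences above 0. The family's medians were 0.59 for KPC and 0.83 for Panc02, beside -0.01 and -0.00 over all tested genes. Ctgf and Cyr61 are themselves among these 4 genes, so the medians partly restate their differences. Wisp1, a secreted CCN protein of fibroblasts and bone, was at 10.2, 10.6 and 14.7 FPKM in KPC libraries, 11, 16.3 and 14 FPKM in Panc02 libraries and 5.65, 8 and 7.87 FPKM in control libraries. Neither tumour group overlapped control. The Wisp1 difference was 0.65 for KPC (limma adjusted p = 0.393, 0.0496 with the block and 0.0969 without the 3 replicate 1 libraries) and 0.85 for Panc02 (limma adjusted p = 0.105, 0.011 with the block and 0.0293 without those libraries). Over all tested genes, 0.588% (KPC) and 1.85% (Panc02) were called higher with the block. Wisp2, which lacks the C-terminal domain of the other CCN proteins, differed by 0.18 (limma adjusted p = 1) and 0.34 (limma adjusted p = 1), and its groups overlapped. Without the 3 replicate 1 libraries the limma adjusted p of Wisp2 was 0.0946 for KPC, 0.0558 for Panc02 and 0.0352 for both sources together.

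Ctgf is also known to respond to Srf with its actin-regulated coactivators and to TGF-beta, so lists for these were set beside the pathway. Of 15 targets and members of the Srf pathway, 1 passed for Panc02, where 0.434% of all tested genes were called higher, and none for KPC. It was Actg2, a smooth muscle actin, at 12, 17.4 and 17.3 FPKM with KPC exosomes, 14.4, 22.3 and 23.7 FPKM with Panc02 exosomes and 7.7, 7.91 and 9.07 FPKM with control exosomes. The groups with tumour exosomes did not overlap control, and the difference was 0.83 for KPC (limma adjusted p = 0.252) and 1.17 for Panc02 (limma adjusted p = 0.0451). The Panc02 call of Actg2 was lost without any 1 of control replicates 1, 2 and 3 (differences of 1.13, 1.14 and 1.23), KPC replicates 2 and 3 (1.17 each) or Panc02 replicates 2 and 3 (1.08 and 1.04), at limma adjusted p of 0.0663 to 0.201. It was also lost with libraries scaled to equal FPKM totals (limma adjusted p = 0.148) and with the Panc02 and control groups alone (limma adjusted p = 0.0644). With the block Actg2, Acta2 (the smooth muscle actin of myofibroblasts) and Tagln (transgelin, which binds actin) passed in both comparisons, where 0.588% (KPC) and 1.85% (Panc02) of all tested genes were called higher. Acta2 differed by 0.51 for KPC and 0.66 for Panc02 (block limma adjusted p = 0.0404 and 0.0086), and Tagln by 0.94 and 1.22 (block limma adjusted p = 0.0328 and 0.00695). Without the 3 replicate 1 libraries, 3 of the 15 passed for KPC, 4 for Panc02 and 5 for both sources together. The shares of all tested genes called higher there were 0.965%, 2.53% and 4.27%. The list's medians were 0.08 for KPC and 0.22 for Panc02.

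Of 10 early targets of TGF-beta, 1 passed for KPC and 2 for Panc02, where 0.125% and 0.434% of all tested genes were called higher. Pmepa1, a membrane protein that dampens Smad signalling, was at 14.2, 18.8 and 26.5 FPKM after KPC exosomes, 30.6, 31.1 and 31.8 FPKM after Panc02 exosomes and 6.79, 5.03 and 6.67 FPKM after control exosomes. As for Ctgf, its 3 groups were apart, with Panc02 above KPC and KPC above control, at differences of 1.51 for KPC (limma adjusted p = 0.0259) and 2.17 for Panc02 (limma adjusted p = 0.0031). Ldlrad4, a relative of Pmepa1 with the same known action on Smads, was at 10, 7.26 and 10 FPKM with KPC exosomes, 12.6, 10.4 and 9.58 FPKM with Panc02 exosomes and 5.69, 4.3 and 4.29 FPKM with control exosomes. No tumour library fell within the control range, and Ldlrad4 differed by 0.81 for KPC (limma adjusted p = 0.137) and 1.04 for Panc02 (limma adjusted p = 0.0272). The KPC call of Pmepa1 was lost without any 1 of control replicates 1, 2 and 3 (differences of 1.57, 1.39 and 1.56), KPC replicates 2 and 3 (1.52 and 1.29) or Panc02 replicates 2 and 3 (1.51 each), at limma adjusted p of 0.0624 to 0.17, and with equal FPKM totals (limma adjusted p = 0.0975) or the KPC and control groups alone (limma adjusted p = 0.153), while its Panc02 call held in every setting tried. Ldlrad4 lost its Panc02 call without control replicate 2 or 3 (0.99 and 0.98) and without Panc02 replicate 1, 2 or 3 (0.94, 1.07 and 1.12), at limma adjusted p of 0.0756 to 0.152, and with totals that leave out mitochondrial genes (limma adjusted p = 0.0504) or median ratio factors (limma adjusted p = 0.0583). With the block 3 of the 10 genes passed for KPC and 7 for Panc02, where 0.588% and 1.85% of all tested genes were called higher. Without the 3 replicate 1 libraries 5 passed for KPC and 6 for Panc02 (0.965% and 2.53% of all tested genes). The medians of the list were 0.54 and 0.72. These lists were chosen with earlier results of the same libraries known, so their direction is not independent evidence.

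AP-1 factors, which are known to share enhancers with Tead, did not pass in either comparison. Of 7 subunits 5 were tested. Without the 3 replicate 1 libraries, 1 of these passed for both sources together, where 4.27% of all tested genes were called higher. Jun was at 66.8, 67.5 and 60.2 FPKM with KPC exosomes, 68.2, 66.4 and 60.9 FPKM with Panc02 exosomes and 64.6, 54.3 and 64.5 FPKM with control exosomes, with overlap between all groups. Its difference from control was 0.09 for KPC (95% interval -0.15 to 0.32) and 0.09 for Panc02 (-0.14 to 0.33). Fosl1 differed by 0.02 and -0.07, Fosl2 by -0.30 and -0.31 and Jund by 0.15 and 0.22.

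**Figure D4:**
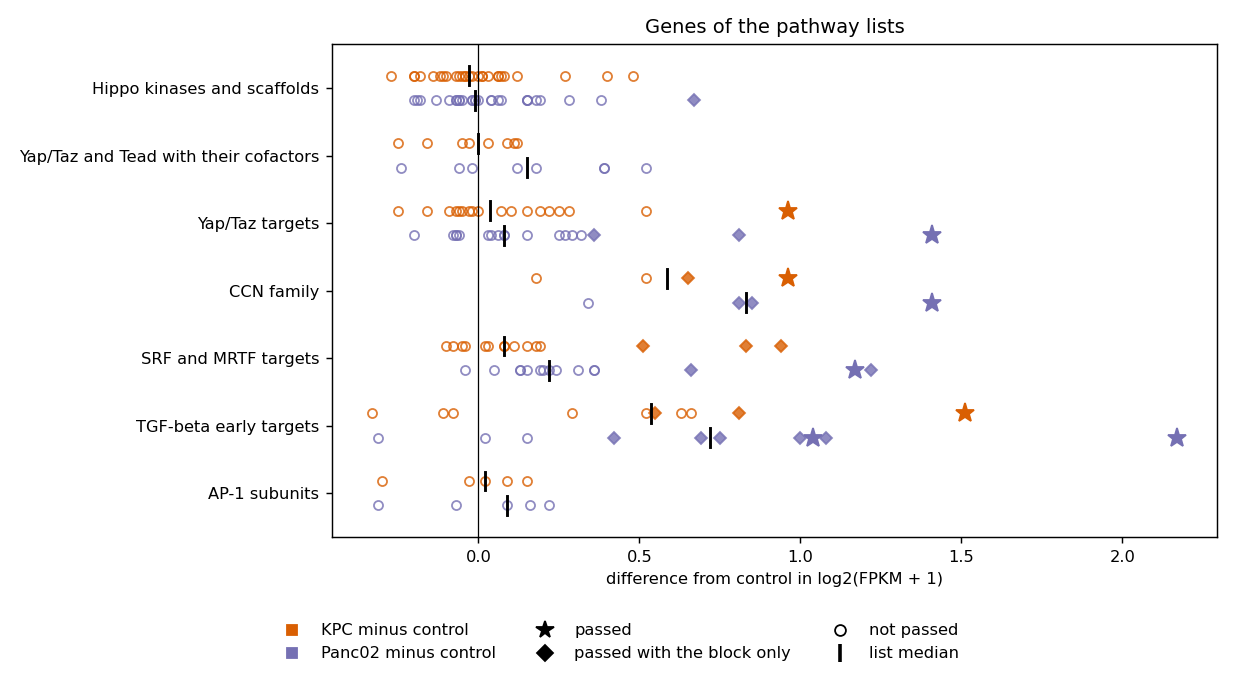
Difference from control in log2(FPKM + 1) (horizontal axis) of every tested gene of 7 lists, KPC in orange above Panc02 in purple; stars passed in the fit of group means, diamonds passed only with the replicate block, circles passed in neither, and black bars are list medians. The Hippo, cofactor and AP-1 lists hold no star, and the stars are Ctgf (0.96 and 1.41, shown in 2 lists), Actg2 (1.17), Ldlrad4 (1.04) and Pmepa1 (1.51 and 2.17).

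Genes with the profile most like that of Ctgf were sought over the 9 libraries, as the smallest root mean square difference between profiles in log2(FPKM + 1) after each was centred on its own mean. The nearest of 10367 other genes were Dock8 (an activator of the GTPase Cdc42, 0.09), Has2 (hyaluronan synthase, 0.10), C1qtnf3 (a secreted relative of C1q, 0.11), Creb3l1 (a transcription factor of the endoplasmic reticulum, 0.11), Myo7a (an unconventional myosin, 0.14) and Fbn1 (fibrillin of microfibrils, 0.15). Has2 averaged 11.8 ± 1.19 FPKM with KPC exosomes, 15.7 ± 1.45 FPKM with Panc02 exosomes and 5.71 ± 0.661 FPKM with control exosomes, and Dock8 averaged 12.4 ± 2.71, 15.4 ± 1.33 and 5.12 ± 0.179 FPKM in the same groups (SD, n = 3 each). Levels were low for C1qtnf3 (means of 1.73, 2.33 and 0.24 FPKM in the same groups) and Myo7a (1.7, 2.49 and 0.31 FPKM). The pseudocount of 1 understates fold changes at such levels, so these 2 genes resemble Ctgf on the log2(FPKM + 1) scale only. The likeness was measured on the same libraries as the contrasts and was not tested. Of the other pathway genes Cyr61 was the nearest to Ctgf, at 0.28 and rank 34. Tead3 followed at 0.46 (rank 256) and Ankrd1 at 0.48 (rank 419), while Yap1 was at 0.63 (rank 4985).

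**Figure D5:**
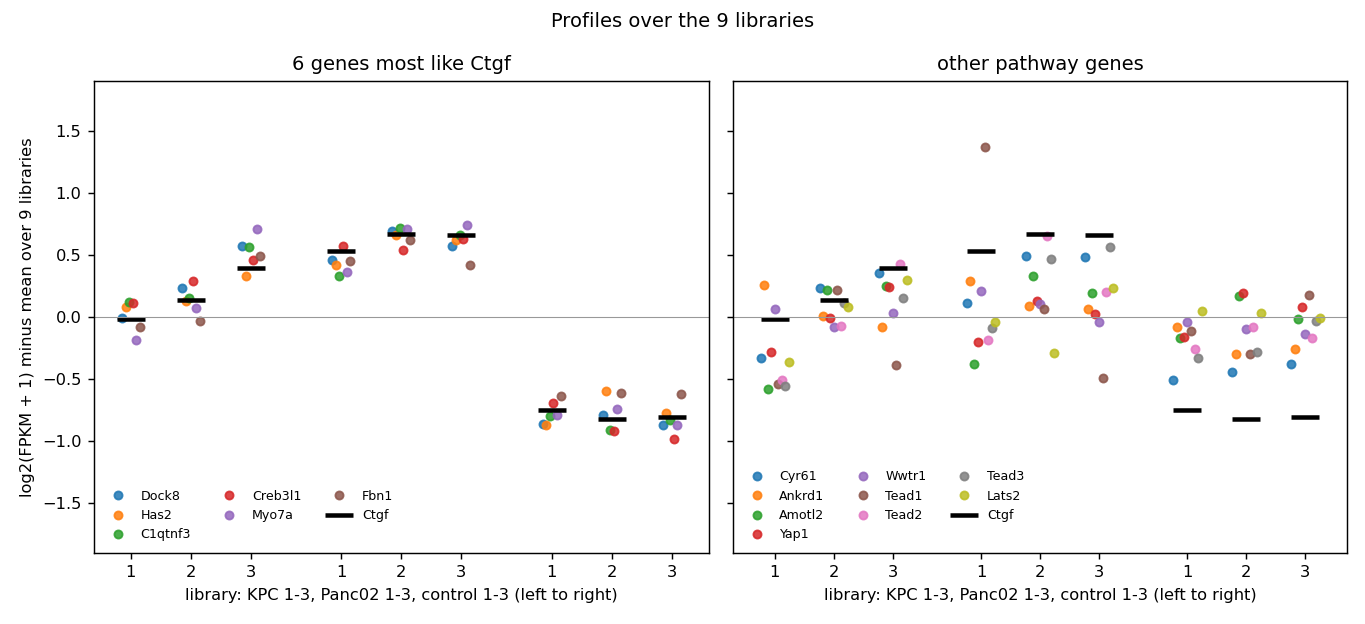
Log2(FPKM + 1) minus each gene's own mean over 9 libraries (vertical axis) in each library (horizontal axis, KPC, Panc02 and control from left to right), for the 6 genes nearest to Ctgf in the left panel and for the other 9 pathway genes in the right; black dashes are Ctgf. In the left panel the points lie close to the dashes in every library. In the right panel Cyr61 and Ankrd1 lie below 0 in the control libraries and above 0 in the Panc02 libraries, Cyr61 the nearer to Ctgf. All 9 genes of that panel lie above Ctgf in the control libraries, where Ctgf is at -0.75 to -0.82.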

How the data were processed

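RNA was extracted with Trizol and made into TruSeq libraries, per the labels' protocols. Per the submitters' processing notes, cutadapt, HISAT2 2.0.4, StringTie 1.2.3 and GRCm38 were used; no source used here gives the cutadapt version or a strand setting. The authors deposited FPKM values of 11051 genes in 9 libraries. They were taken as log2(FPKM + 1), with a pseudocount of 1, so fold changes of low genes are understated. Testing was limited to the 10368 genes that reached 1 FPKM in 3 or more libraries (683 did not). Group means were fitted to all 9 libraries in limma 3.58.1 (R 4.3.3) with a prior variance that varies with expression level; residual degrees of freedom were 6, to which the prior added 2.38. Tests were two-sided, p-values were adjusted by Benjamini and Hochberg over all tested genes within a comparison, and genes passed under 0.05. Intervals are unadjusted.

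The comparisons were KPC with control, Panc02 with control, both with control, and Panc02 with KPC. The labels number libraries 1 to 3 without saying what numbers mean. After removal of group means, the correlation across genes between same-numbered libraries was 0.639 to 0.81 (number 1) or 0.243 to 0.511 (number 2 or 3), and between a number 2 and a number 3 library of different groups 0.299 to 0.613. Every same-number correlation was above 0.1, and the model was also fitted with that number as a block (residual degrees of freedom 4, prior 3.51). For numbers 2 and 3 the correlations were no higher within a number than between the numbers. Pairing of those libraries was therefore not shown, and only number 1 stood apart.

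The 10 genes were given whatever their values. From each list the genes that passed in the fit of group means were named, or where none passed up to 4 with the lowest p. Crim1, Axl, F3, Myof, Tead4, Wisp1, Wisp2, Acta2 and Tagln were named outside this rule, after their values were seen. The genes and lists were chosen with earlier results of these data known. The model was tested on simulated data. Motifs were searched in promoter sequences of RefSeq GRCm38.p6. Other tools were Python 3.11.15, numpy 2.4.6, pandas 2.3.3 and matplotlib 3.10.9.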

Additional observations from a re-analysis of the deposited data

How the results depend on the processing

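The Panc02 and pooled differences of Ctgf passed in every alternative (1.39 to 1.48 in 20 settings and 1.13 to 1.28 in 19). For KPC, Ctgf passed in 11 of 20. It was lost with libraries scaled to equal FPKM totals (0.97, limma adjusted p = 0.123) and with the control and KPC groups alone (0.96, 0.132), and leaving out 1 library gave 0.85 to 1.06. The standard error of this KPC difference was 0.12 in the fit of group means and 0.17 with equal totals. With totals that leave out mitochondrial genes it was 0.10, and the call was kept (limma adjusted p = 0.00731). Under the scalings the difference of the median gene stayed between -0.010 and 0.032, and the cause of the lost call was not tested. The replicate block left the Ctgf difference at 0.96 for KPC and lost no call. Of the 10 genes, 1 passed for KPC, against 0 with equal totals, 0 with those groups alone, 2 without the 3 replicate 1 libraries and 0 to 1 without 1 library. For Panc02, and equally for both sources, 1 passed, against 2 with totals that leave out mitochondrial genes, 2 with median ratio factors, 3 with the block, 4 without replicate 1 libraries and 1 to 2 without 1 library. The 34 genes called for KPC became 6 with equal totals, 174 with the block, 178 without replicate 1 libraries, 0 with those groups alone and 0 to 34 without 1 library. The 105 for Panc02 became 67 at a minimum of 5 FPKM, 46, 440 and 477, and 23 to 126 without 1 library. The 131 for both sources became 78, 54, 472 and 757 in that order, and 25 to 162. Between Panc02 and KPC 0 became 8 without replicate 1 libraries and 0 to 1 without 1 library.

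Signs turned round only in differences that passed in no setting. Without the replicate 1 libraries these were Amotl2 for KPC (0.16), Tead1 for Panc02 (-0.16), for both (-0.09) and for Panc02 over KPC (-0.13), and Lats2 for KPC (0.18) and for both (0.07). With equal totals Yap1 for Panc02 over KPC was 0.02, and with totals that leave out mitochondrial genes Lats2 for KPC was 0.00. Without 1 library, Amotl2 ranged over -0.17 to 0.25 for KPC, -0.08 to 0.27 for Panc02, -0.06 to 0.15 for both and -0.19 to 0.30 for Panc02 over KPC. Lats2 ranged over -0.16 to 0.17, -0.19 to 0.07, -0.11 to 0.06 and -0.23 to 0.11 in the same order, its second entry over -0.44 to 0.45, -0.44 to 0.67, -0.21 to 0.56 and -0.45 to 0.67, and Yap1 over -0.18 to 0.08, -0.16 to 0.03, -0.15 to 0.02 and -0.13 to 0.12. Tead1 ranged over -0.14 to 0.79 for Panc02 and -0.15 to 0.31 for both, Tead2 over -0.12 to 0.35 for KPC and Tead3 over -0.01 to 0.34 for KPC. A minimum of 5 FPKM left no value for Tead1 or the second Lats2 entry. A fit of the compared groups alone was not made for both sources, since it is the fit of all libraries.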
